A study of Saccharomyces cerevisiae with 12 samples.

Results

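The mevalonate branch is the first stretch of ergosterol synthesis in yeast, and its 9 genes, ERG10, ERG13, HMG1, HMG2, ERG12, ERG8, MVD1, IDI1 and ERG20, were followed across 12 Affymetrix arrays of Saccharomyces cerevisiae. The genes were matched by symbol in the annotation of the array platform and make up 9 of the 5449 named yeast genes tested. Their list was chosen with earlier results of these data known. Each had 1 probe set, and MVD1 is also called ERG19. The arrays fall into 6 groups of 2. E62A, E62B and E62C are 3 evolved mutants, obtained, as known from the study, by long growth on galactose. The label SO16 marks a strain that, as known from the study, lacks GAL80, MIG1 and LAP3, and the label PGM2 a strain built to overexpress the phosphoglucomutase gene PGM2. REF is the unmodified reference. All groups share the haploid laboratory background CEN.PK113-7D and were grown with galactose in minimal medium in fermenters at a fixed pH, with RNA taken in mid exponential phase. No label states that replicate arrays stem from different cultures, or whether an evolved label is 1 clone. The spread behind each p-value is thus that between arrays and could be technical alone.

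The branch turns acetyl-CoA into farnesyl diphosphate, the isoprenoid from which squalene and then ergosterol, the main sterol of yeast membranes, are made. Reduction of HMG-CoA to mevalonate is its best known control point, and the cell regulates the reductase both through the sterol-responsive transcription of the pathway and through breakdown of the protein. Intermediates also leave the branch for dolichol, ubiquinone, heme a and the prenyl groups of proteins. In budding yeast the sterol-responsive activators Upc2 and Ecm22 are known to act on many ERG genes, and the heme-responsive activator Hap1 on HMG1.

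The strain labels were checked first. GAL80 lay at 6.29 and 6.04 on the arrays labelled SO16, against 11.32 and 11.43 on the REF arrays, and LAP3 and MIG1 were below the background level of 6.0 on both SO16 arrays. The gene PGM2 measured 10.49 and 10.87 on arrays labelled PGM2, against 12.14 and 12.11 on the REF arrays, while the arrays labelled E62C had 13.43 and 13.19. The PGM2 level therefore goes against the label PGM2, so groups are named by their labels here, and every direction for E62C and PGM2 carries this conflict. A pair of arrays, E62C replicate 2 and SO16 replicate 2, had weak hybridisation controls (mean 8.91, with 10.7 for the remaining 10 arrays) and high ribosomal RNA probe sets (11.9, with 9.84 for the remaining arrays). All 7 markers of mating type a were above background on all 12 arrays. Their summed level was 13.35 to 13.36 on the arrays labelled E62A and 14.15 to 14.22 on the REF arrays. It was also below REF on E62C (13.73 to 13.96), SO16 (13.74 to 13.81) and PGM2 (13.865 to 14.04), and above it on E62B (14.27 to 14.34). The summed level of 4 markers of mating type alpha, also all above background, was 9.12 to 9.23 on E62A and 9.79 to 9.98 on REF. Over the other labels it ran from 9.52 on SO16 to 10.04 on E62B. The part of any of these in the results below was not tested.

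All 9 genes were well above background on every array. Levels are log2 values of the robust multi-array average (RMA), the deposited unit, and the lowest single value was 9.14, for HMG2 on SO16 replicate 1. Over the 12 arrays the genes varied little. The range of the 6 group means was widest for HMG2 (0.50) and MVD1 (0.44), and narrowest for IDI1 (0.11) and ERG20 (0.14). The pooled standard deviation (SD) within groups lay between 0.055 for ERG20 and 0.11 for MVD1, and for IDI1 it was 0.092.

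**Figure D1:**
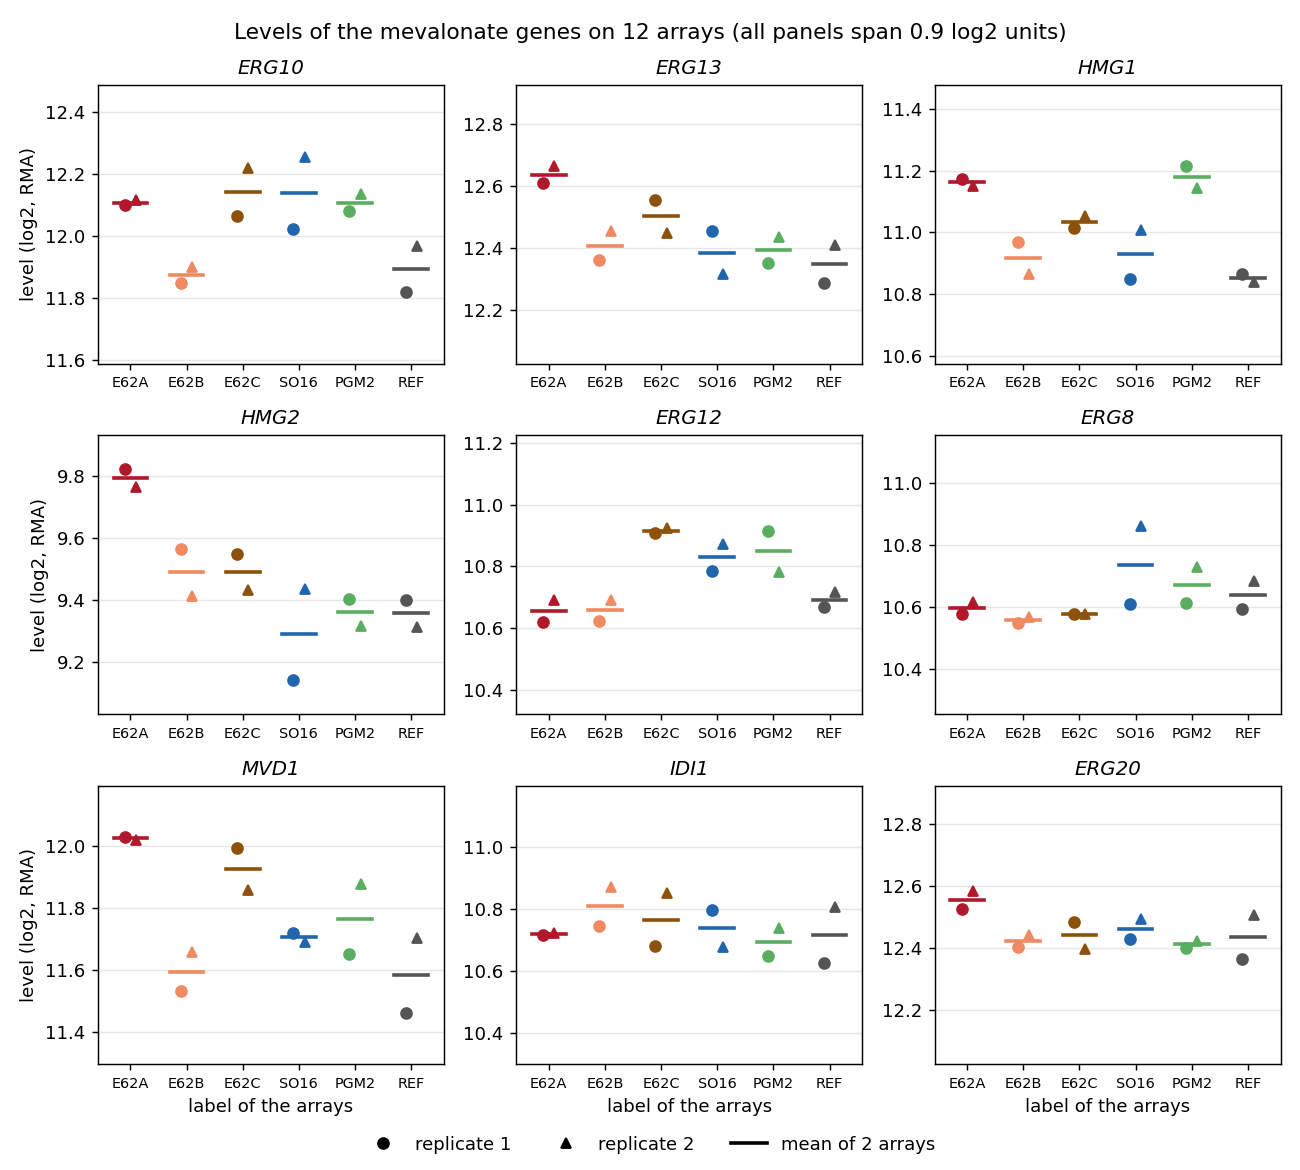
Level of each of the 9 mevalonate genes (log2, RMA) on the arrays of the 6 labels, with circles for replicate 1, triangles for replicate 2 and a bar for the mean of 2 arrays; every panel spans 0.9 log2 units. The E62A arrays stand above REF for ERG13, HMG1, HMG2 and MVD1, while IDI1 spans 0.25 over all 12 arrays.

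Among the 5 comparisons with REF, that of the evolved mutant E62A held 4 of the 5 calls. Of the 9 genes, 4 rose and none fell on the arrays labelled E62A by limma at an adjusted p under 0.05, and 5 did not pass. Over all 5449 genes tested, 5.56% were higher and 6.97% lower by the same rule. The median difference of the 9 genes was 0.21 on the log2 scale, against 0.0035 for all genes. The genes that rose were ERG13, HMG1, HMG2 and MVD1, by 1.22-fold to 1.36-fold. Since RNA came from whole cultures, a change in the share of cells that express a gene and a change of RNA per cell cannot be told apart.

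ERG10, the thiolase that joins acetyl-CoA units to acetoacetyl-CoA, lay at 12.10 and 12.12 on the arrays labelled E62A, against 11.82 and 11.97 on the REF arrays. The groups did not overlap, but the difference of 0.21 ± 0.09 (standard error, SE, of the limma fit) did not pass, with an adjusted p of 0.157. ERG13, which makes HMG-CoA, lay at 12.61 and 12.66 on E62A and at 12.29 and 12.41 on REF. Both E62A arrays were above both REF arrays, and also above the other 8. ERG13 rose by 0.29 ± 0.08 (adjusted p = 0.0328).

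Both genes of HMG-CoA reductase rose. HMG1, which encodes the isozyme that dominates in aerobic cells, lay at 11.17 and 11.15 on the arrays labelled E62A, against 10.87 and 10.84 on the REF arrays, a difference of 0.31 ± 0.07 (adjusted p = 0.0155). HMG2, whose protein is the isozyme known for regulated degradation in the endoplasmic reticulum, lay at 9.82 and 9.76 on E62A and at 9.40 and 9.31 on REF. Its E62A values were the highest of the 12 arrays, and it rose by 0.44 ± 0.10 (adjusted p = 0.0129).

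The steps after mevalonate did not move together. ERG12, mevalonate kinase, lay at 10.62 and 10.69 on E62A and at 10.67 and 10.72 on REF, with a difference of -0.04 ± 0.07 and a 95% interval of -0.19 to 0.12. For ERG8, phosphomevalonate kinase, the levels were 10.58 and 10.62 on E62A and 10.59 and 10.68 on REF, with an interval of -0.23 to 0.14. Neither kinase passed the test (adjusted p = 0.82 by limma for both), and both groups overlapped. MVD1, the decarboxylase that forms isopentenyl diphosphate, did rise. Its levels were 12.03 and 12.02 on E62A, against 11.46 and 11.70 on REF, a difference of 0.44 ± 0.10 (adjusted p = 0.0126). The E62A arrays were nearly identical for MVD1, while REF replicate 1 was the lowest of all 12 arrays. IDI1, the isomerase of isopentenyl diphosphate, lay at 10.72 on both E62A arrays, inside the REF values of 10.62 and 10.81, and its interval was -0.19 to 0.20. ERG20, farnesyl diphosphate synthase, lay at 12.53 and 12.58 on E62A and at 12.37 and 12.51 on REF, a difference of 0.12 ± 0.07 that did not pass (adjusted p = 0.331). In all, 6 of the 9 genes were higher on E62A with no overlap of the arrays, against 30.9% of all genes tested.

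A run without 1 of the 4 E62A and REF arrays leaves a lone array in a group and so has less power. Calls for E62A were mostly lost without any 1 of these arrays. ERG13, HMG1 and HMG2 did not pass without any 1 of them, with adjusted p values of 0.0503 to 0.229, and MVD1 passed only without REF replicate 2 (0.0844 to 0.127 without any of the other 3 arrays), although the differences kept their direction and stayed between 0.23 and 0.56. Without REF replicate 1, the lowest array for 5 of the genes, MVD1 differed by 0.32 and ERG13 by 0.23. E62C replicate 2 and SO16 replicate 2 belong to neither E62A nor REF. Leaving them out changed the spread of the fit but no E62A difference. With E62C replicate 2 and SO16 replicate 2 left out of the fit, 5 of the 9 genes passed, ERG10 among them (adjusted p = 0.0333).

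**Figure D2:**
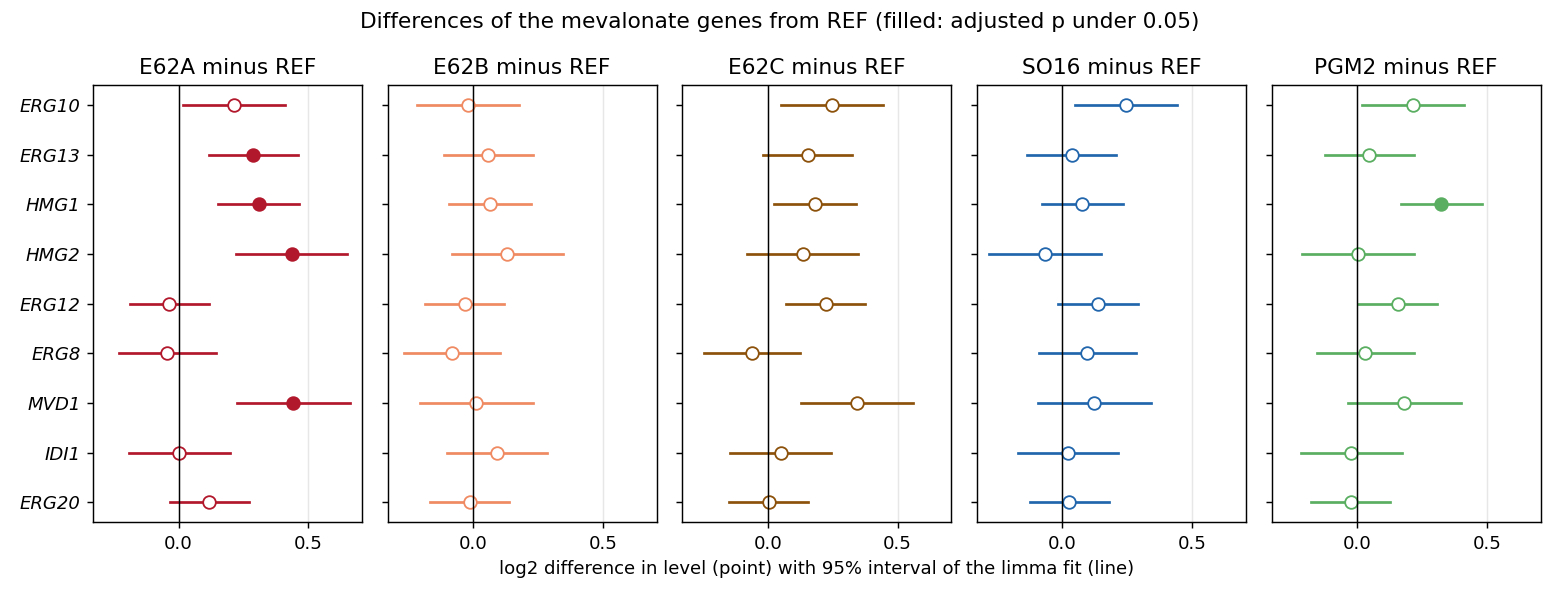
Log2 difference of each mevalonate gene from REF for the 5 other labels, with the 95% interval of the limma fit as a line and a filled point where the adjusted p was under 0.05. Filled points are ERG13, HMG1, HMG2 and MVD1 for E62A and HMG1 for PGM2, and no gene has one for E62B, E62C or SO16.

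On the arrays labelled PGM2, HMG1 was the gene of the branch that rose, and none fell. Over all genes, 7.03% were higher and 6.53% lower in this comparison, so a count of 1 in 9 is near the background. Levels of HMG1 were 11.21 and 11.14 on PGM2, against 10.87 and 10.84 on REF, and rose by 0.32 ± 0.07, or 1.25-fold (adjusted p = 0.0115). The call ended when PGM2 replicate 1 was left out (adjusted p = 0.103), and also without either of the REF arrays (adjusted p = 0.0515 without replicate 1 and 0.072 without replicate 2). HMG2 lay at 9.40 and 9.32 on PGM2, almost the REF values of 9.40 and 9.31, with an interval of -0.21 to 0.22. ERG10 and ERG12 differed by 0.21 ± 0.09 and 0.16 ± 0.07 and did not pass (adjusted p = 0.161 and 0.188), and the other 6 genes lay between -0.02 and 0.18. Without overlap of the arrays 3 of the 9 genes were higher, against 29.8% of all genes.

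The reductase genes were also set against each other within arrays, as HMG1 minus HMG2 relative to the mean of the REF arrays. This value was 0.31 and 0.33 on the arrays labelled PGM2, against -0.03 and 0.03 on the REF arrays. It was -0.14 and -0.11 on E62A, where the difference from REF was 0.44 for HMG2 and 0.31 for HMG1. The gap between these genes was not tested on any label. The remaining arrays had -0.09 and -0.04 for E62B, -0.03 and 0.12 for E62C, and 0.21 and 0.077 for SO16. E62A and PGM2 could also be compared directly for each gene. HMG2 was higher on E62A than on PGM2 by 0.43 ± 0.10 (adjusted p = 0.00812), whereas for HMG1 the difference of -0.02 ± 0.07 did not pass (adjusted p = 0.911, interval -0.17 to 0.14). Both labels were compared with the same REF arrays.

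**Figure D3:**
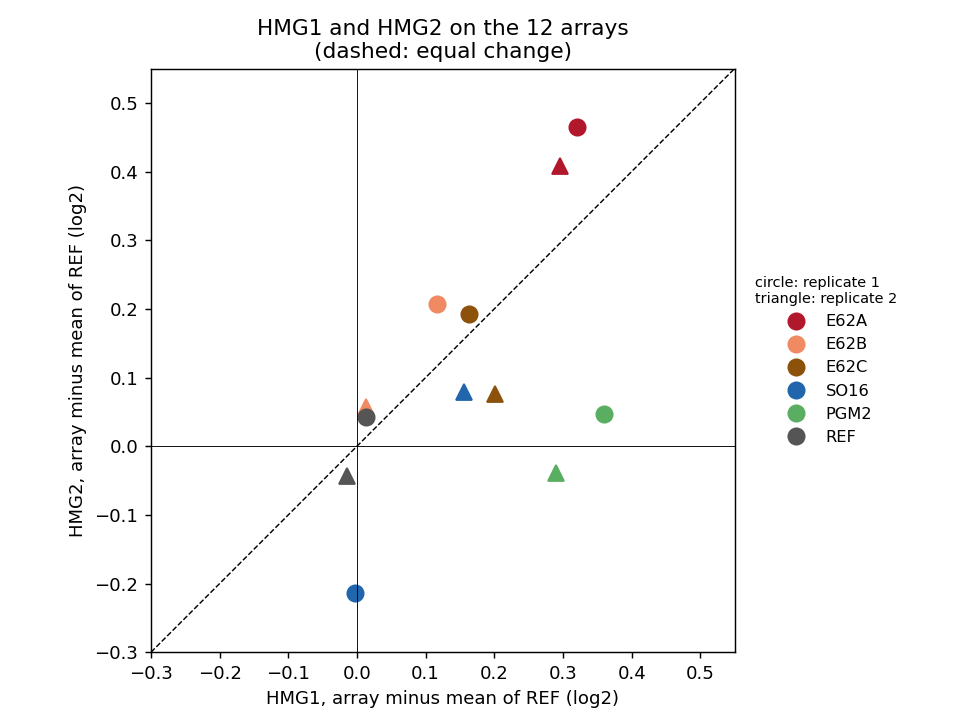
HMG1 (horizontal) against HMG2 (vertical) on the 12 arrays, each as the log2 level minus the mean of the REF arrays; circles are replicate 1, triangles replicate 2, and the dashed line marks equal change. The PGM2 arrays lie to the right with HMG2 near 0, and the E62A arrays lie above the line.

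None of the 9 genes passed the test by limma on the arrays labelled E62C, where 4.84% of all genes were higher and 4.96% lower. At an unadjusted p under 0.05 there were 4, namely ERG10, HMG1, ERG12 and MVD1, all of them higher. By that looser rule 1343 of all 5449 genes passed, in either direction. MVD1 came closest, at 11.99 and 11.86 on E62C and 11.46 and 11.70 on REF, a difference of 0.34 ± 0.10 (adjusted p = 0.0516). ERG12 lay at 10.91 and 10.93 on E62C, against 10.67 and 10.72 on REF, with a difference of 0.22 ± 0.07 (adjusted p = 0.0719). The E62C arrays agreed within 0.02 for ERG12, and 6 of the 9 genes were higher with no overlap of the arrays, against 29.1% of all genes. MVD1 passed when E62C replicate 2 and SO16 replicate 2, the arrays with weak hybridisation controls, were both left out (0.41, adjusted p = 0.0417), and without REF replicate 2 (0.47, adjusted p = 0.0349). Its difference was 0.28 without E62C replicate 1 (adjusted p = 0.17) and 0.22 without REF replicate 1 (adjusted p = 0.365).

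On the arrays labelled SO16 no gene of the branch passed by limma, against 3.69% of all genes called higher and 5.1% lower. At an unadjusted p under 0.05 there was 1 gene of the branch, against 1136 of all 5449 genes. That gene was ERG10, at 12.02 and 12.26 on SO16 and 11.82 and 11.97 on REF, a difference of 0.25 ± 0.09 (adjusted p = 0.134). The SO16 arrays differed from each other by 0.23 for ERG10, nearly as much as the group differed from REF. Without overlap of the arrays 2 of the 9 genes, ERG10 and ERG12, were higher, against 19.4% of all genes. Replicates of SO16 also stood apart for HMG2, at 9.14 and 9.43, and for ERG8, at 10.61 and 10.86. ERG10 passed at 0.36 without SO16 replicate 1 (adjusted p = 0.0315), while without SO16 replicate 2 its difference was 0.13 (adjusted p = 0.423). SO16 replicate 2 is an array with weak hybridisation controls, and without it HMG1 differed from REF by -0.0025 and ERG8 by -0.03, against 0.08 and 0.10 with all arrays.

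The arrays labelled E62B lay close to REF throughout. No gene of the branch passed by limma and none had an unadjusted p under 0.05, and over all genes tested 0% passed, with 97 of 5449 at an unadjusted p under 0.05. The differences ran from -0.08 ± 0.08 for ERG8 to 0.13 ± 0.10 for HMG2. HMG2 was the 1 gene of 9 that was higher without overlap of the arrays, against 17.3% of all genes. The 95% intervals of the 9 genes stayed within -0.28 and 0.35, so a rise of the size seen for HMG2 or MVD1 on E62A lay outside the interval of the same gene on E62B. Directly compared, E62A was above E62B for HMG1 by 0.24 ± 0.07 (adjusted p = 0.0477) and for MVD1 by 0.43 ± 0.10 (adjusted p = 0.0146), 2 of 9 genes against 5.1% of all genes higher. For HMG2 and ERG13 the direct differences of 0.30 ± 0.10 and 0.23 ± 0.08 did not pass (adjusted p = 0.0687 and 0.0854 by limma).

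The order of the 6 groups differed between genes. E62A had the highest mean for ERG13, HMG2, MVD1 and ERG20, E62C for ERG10 and ERG12, PGM2 for HMG1, SO16 for ERG8 and E62B for IDI1. REF had the lowest mean for ERG13, HMG1 and MVD1. No neighbours in any of these orders differed at an adjusted p under 0.05. The widest step between neighbours was that of HMG2, where E62A stood 0.30 ± 0.10 above E62C (adjusted p = 0.0546).

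For ERG10 the levels formed 2 tiers. E62C, SO16, E62A and PGM2 had means between 12.11 and 12.14, and REF and E62B had 11.89 and 11.87. The step between the tiers, PGM2 over REF, was 0.21 ± 0.09 and did not pass. For ERG12 the means were 10.92 for E62C, 10.85 for PGM2 and 10.83 for SO16, with REF, E62B and E62A between 10.66 and 10.69. ERG12 was lower on E62A than on E62C by -0.26 ± 0.07 (adjusted p = 0.0269). As the 1 gene of 9 that was lower there, it makes a count near the 9.97% of all genes. It was also lower on E62B than on E62C by -0.26 ± 0.07 (adjusted p = 0.0358), again 1 gene of 9, against 5.47% of all genes.

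Against the engineered labels, E62A was higher for ERG13, HMG1, HMG2 and MVD1 than SO16, 4 of 9 genes against 10.4% of all genes. The largest of these differences was 0.50 ± 0.10 for HMG2 (adjusted p = 0.00411), and the smallest 0.23 ± 0.07 for HMG1 (adjusted p = 0.042). E62A was higher than PGM2 for ERG13, by 0.24 ± 0.08 (adjusted p = 0.0451), and for HMG2, 2 of 9 genes against 10.6% of all genes. HMG1 was lower on E62B than on PGM2 by -0.26 ± 0.07 (adjusted p = 0.0288), 1 of 9 genes and near the 7.87% of all genes. No gene of the branch passed by limma in the other comparisons. Between E62B and SO16 2 of the 9 had an unadjusted p under 0.05, against 1193 of all 5449 genes. By the adjusted rule 10.8% of all genes passed there in either direction. In the same order, the values were 1, 807 and 3.43% between E62C and SO16. They were 0, 1356 and 8.85% between E62C and PGM2, and 1, 937 and 3.4% between SO16 and PGM2. All these comparisons share arrays with those against REF.

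The later steps of the pathway were described beside the branch. On the arrays labelled E62A, 13 of the 15 genes from squalene to ergosterol rose and 2 did not pass, against 5.56% of all genes higher. The median difference of the 15 was 0.60, and that of the mevalonate genes, of which 4 of 9 rose, was 0.21. From squalene to zymosterol 8 of 10 rose, including ERG28, a scaffold of the enzyme complex, by 0.87 ± 0.09, ERG24, a sterol reductase, by 0.76 ± 0.11, and NCP1, the reductase partner of Erg11, by 0.64 ± 0.09. All 5 genes from zymosterol to ergosterol rose, ERG3, a sterol desaturase, by 1.07 ± 0.08, ERG2, a sterol isomerase, by 0.70 ± 0.08 and ERG4, which catalyses the last step, by 0.67 ± 0.09. Without 1 array at a time, 9 to 13 of the 15 passed.

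In the other groups fewer of these 15 genes passed. The count was 3 higher for E62C (ERG28 by 0.74 ± 0.09, ERG26 by 0.50 ± 0.09 and ERG2 by 0.34 ± 0.08) and 2 higher for PGM2 (ERG3 by 0.30 ± 0.08 and ERG2 by 0.29 ± 0.08). It was 0 for SO16 and 0 for E62B by limma, and none fell in any of the 5 comparisons with REF. Of all genes tested, 4.84% were higher for E62C, 7.03% for PGM2, 3.69% for SO16 and 0% for E62B. In SO16 the members with the largest differences, ERG26 at 0.26 ± 0.09 and ERG28 at 0.25 ± 0.09, did not pass (adjusted p = 0.12 and 0.125).

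**Figure D4:**
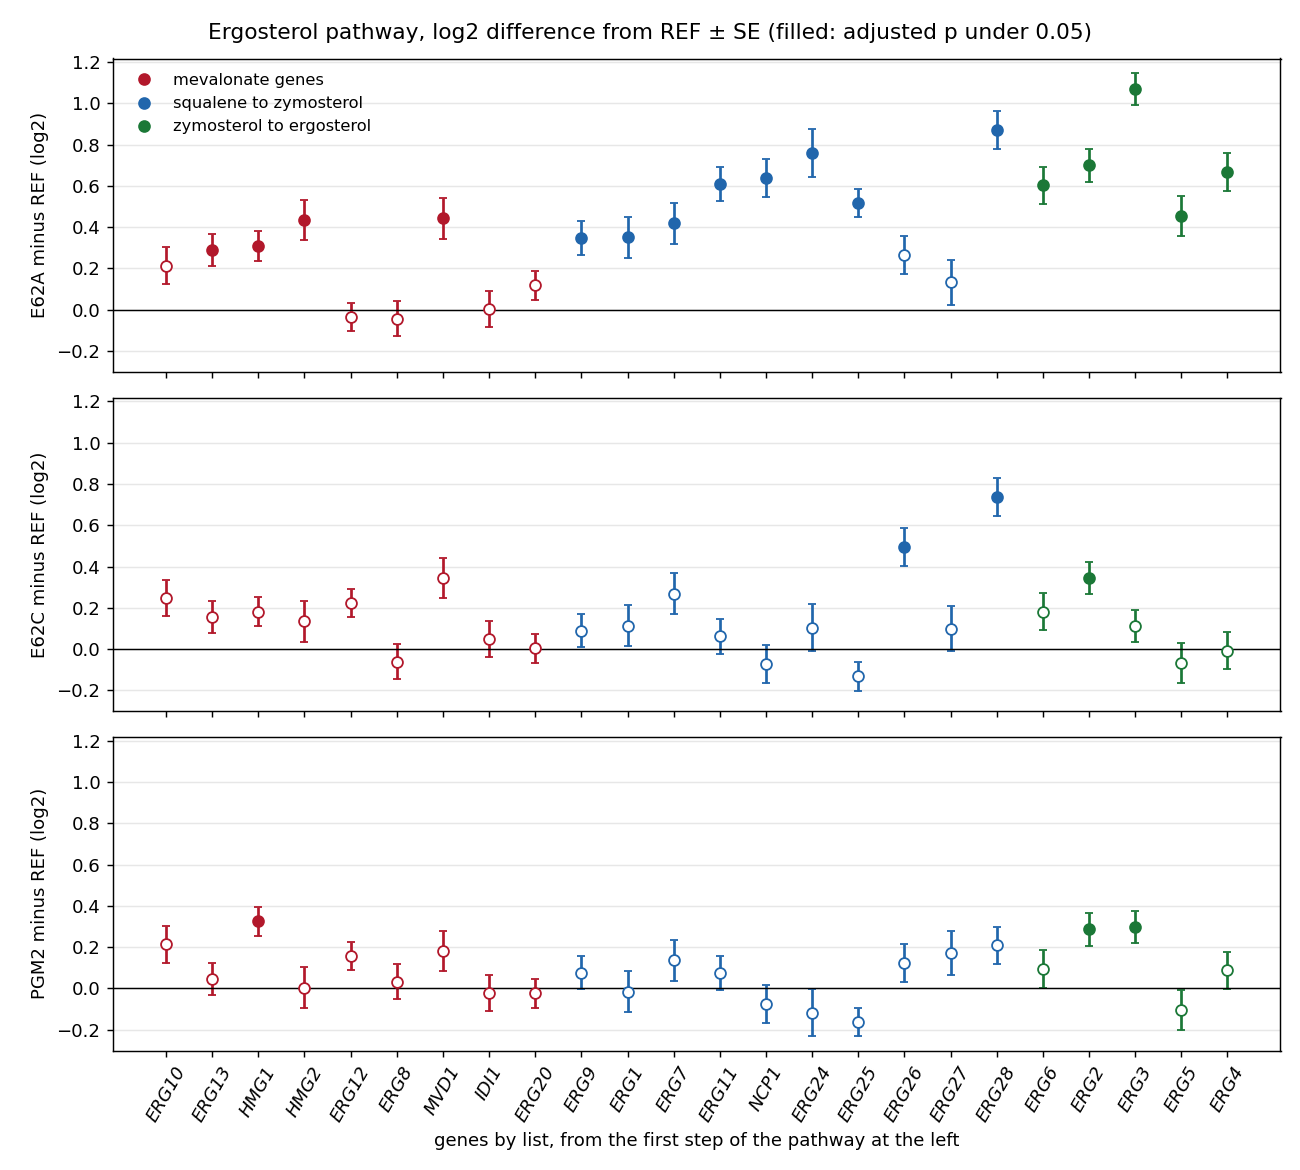
Log2 difference from REF ± SE for the 9 mevalonate genes and the 15 later genes of ergosterol synthesis on the arrays labelled E62A, E62C and PGM2; filled points had an adjusted p under 0.05. For E62A the later genes reach 1.07, while the mevalonate genes stay at or below 0.44 and ERG12, ERG8 and IDI1 lie between -0.04 and 0.0031.

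Of 7 sterol regulators, UPC2, the sterol-responsive activator, rose by 0.44 ± 0.10 on E62A (adjusted p = 0.0168), and the other 6 did not pass. That is 1 of 7 genes, against 5.56% of all genes higher for E62A. UPC2 lay at 8.33 and 7.96 on the E62A arrays, against 7.73 and 7.68 on the REF arrays. The E62A arrays were thus nearly as far from each other as from REF. Without E62A replicate 1 UPC2 differed by 0.25 and did not pass (adjusted p = 0.149), nor did it pass without either of the REF arrays (0.072 and 0.101). Its relative ECM22 had -0.19 ± 0.10 and HAP1 0.15 ± 0.09 (adjusted p = 0.239 and 0.316). On PGM2, UPC2 had -0.03 ± 0.10, HAP1 -0.10 ± 0.09, and SUT2, a regulator of sterol uptake, rose by 0.39 ± 0.09 (adjusted p = 0.0115). SUT2 was the 1 of 7 that passed there, against 7.03% of all genes higher for PGM2.

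Of 16 genes for the regulated breakdown of HMG-CoA reductase none passed by limma on E62A, where NSG2, an Insig relative that binds the reductase, had the largest difference at 0.20 ± 0.07 (adjusted p = 0.107), and UFD1, of the Cdc48 complex, the next largest at -0.16 ± 0.10. None passed for E62B, E62C or SO16. On PGM2 1 rose, DFM1, a membrane protein of endoplasmic reticulum degradation, by 0.30 ± 0.09 (adjusted p = 0.0418). That is 1 of 16 genes, against 7.03% of all genes higher for PGM2, a share near the background. HRD1, the ubiquitin ligase of the reductase, had 0.12 ± 0.09 on E62A and 0.19 ± 0.09 on PGM2 (adjusted p = 0.492 and 0.24).

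Upstream, of 16 genes of acetyl-CoA supply and transfer 6 rose and 2 fell on E62A, with a median of 0.14 against 0.0035 for all genes. The largest changes were those of ALD3 (-0.57 ± 0.11), a stress-induced aldehyde dehydrogenase, ALD5 (0.53 ± 0.13), a mitochondrial one, and YAT2 (0.52 ± 0.08), a carnitine acetyltransferase. The counts were 3 and 1 for E62C, 2 and 2 for SO16, and 2 and 2 for PGM2, with none for E62B, each with the number that rose first. Over all genes 5.56% were higher and 6.97% lower for E62A, 4.84% and 4.96% for E62C, 3.69% and 5.1% for SO16, and 7.03% and 6.53% for PGM2. ALD3 fell and YAT2 rose in each of E62A, E62C, SO16 and PGM2, and these 4 comparisons share the REF arrays. Other genes of the list did not move alike. By limma ALD4 rose on E62A (0.40, adjusted p = 0.0106) but fell on SO16 (-0.91, adjusted p = 4.41e-05) and PGM2 (-0.45, adjusted p = 0.00453).

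Downstream, the other users of isoprenyl diphosphates mostly did not pass. Of 16, SRT1, a prenyltransferase of dolichol synthesis, rose by 0.89 ± 0.10 on E62A (adjusted p = 2.00e-04), and LPP1, a lipid phosphatase, rose by 0.34 ± 0.10 on PGM2 (adjusted p = 0.0426). As 1 of 16 genes each, these counts are near the 5.56% and 7.03% of all genes that were higher. BTS1, which makes geranylgeranyl diphosphate from the product of ERG20, had 0.05 ± 0.07 on E62A. Of 12 genes of sterol esters and transport, 4 rose and 2 fell on E62A, led by ATF2, an acetyltransferase that also acts on sterols, at 1.64 ± 0.07. Of all genes tested, 5.56% were higher and 6.97% lower there. ARE2, the main sterol acyltransferase, rose by 0.66 ± 0.09, and AUS1, a sterol importer, fell (-0.50 ± 0.13). The counts were 0 and 2 for E62C, with PRY1 at -0.63 ± 0.08, 2 and 1 for SO16, and 2 and 1 for PGM2, with PRY1 at -0.97 ± 0.08 and PRY2 at 0.93 ± 0.06. The shares of all genes higher and lower were 4.84% and 4.96% for E62C, 3.69% and 5.1% for SO16, and 7.03% and 6.53% for PGM2.

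Leaving out 1 array at a time, 24 of the 57 calls of genes outside the branch against REF passed in every run and 33 did not. Among the genes named, calls that passed in every run were those of ERG28, ERG24, NCP1, ERG3, ERG2, ERG4, SRT1, YAT2, ATF2 and ARE2 on E62A, ERG28, YAT2 and PRY1 on E62C, ALD4 and YAT2 on SO16, and ALD3, YAT2, PRY1 and PRY2 on PGM2. The calls of ERG26 and ERG2 on E62C, of ERG3, ERG2, SUT2, DFM1, LPP1 and ALD4 on PGM2, of ALD3 on E62A, E62C and SO16, and of UPC2, ALD4, ALD5 and AUS1 on E62A were lost in at least 1 run. UPC2 was the 1 gene whose difference moved by over 1.5 times.

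The genes whose levels ran most like each gene of the branch over the 12 arrays were found by Pearson's correlation among all 5449 genes, as a description, since arrays of a label are not independent conditions and with so many genes some correlate by the size of the search. Sterol genes came first for HMG2, which was most like ERG24 (r = 0.96) and GDT1 (0.96), and for ERG20, which was most like ERG1 (0.90) and ERG9 (0.89), the next steps after it. MVD1 ran most like HOM3 (0.96) and ARO3 (0.95), and ERG13 most like YHR127W (0.95) and ARO3 (0.95). HOM3 and ARO3 are enzymes of amino acid synthesis. ERG10 was closest to RIB1 (0.98) and URA6 (0.97), HMG1 to TYW1 (0.94) and SCH9 (0.93), ERG12 to ALT2 (0.95) and NTF2 (0.94), ERG8 to RMP1 (0.89) and RSR1 (0.82), and IDI1 to TPT1 (0.85) and SEC22 (0.83). Within the branch the closest pair was ERG13 and MVD1 (0.89). HMG1 and HMG2 correlated at 0.55, ERG12 at -0.35 with HMG2, and IDI1 ran from -0.37 with HMG1, the lowest value of any pair, to 0.20 with ERG13.

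Replicate arrays differed in a shared direction for many of these genes. Replicate 2 was above replicate 1 for 7 of 9 genes in REF, by a median of 0.12, when 68.0% of all genes were higher in that replicate and the median over all genes was 0.054. In SO16 it was 6 of 9 with a median of 0.088, against 75.0% and 0.11 for all genes. In E62A the arrays differed by -0.06 to 0.07 over the 9 genes. The differences of 0.29 to 0.44 called for E62A were larger than the difference between its own arrays for each of the 4 genes, and larger than that between the REF arrays, which reached 0.24 for MVD1.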

How the data were processed

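The deposited values are log2 levels of 10928 probe sets on 12 arrays. The submitters' processing notes name RMA and the affy package, without versions, and no further step. RMA normally equalises arrays, which would remove a shift of all transcripts; array medians were 6.72 to 6.89. Values ran from 5.42 to 14.4. Arrays have no read depth, and their number limits the precision.

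By the platform annotation 7244 probe sets had 1 symbol, 1 had several and 3683 had none. Of these, 5498 matched a gene of assembly R64 by gene identifier. Where a gene had several, that of highest mean stood for it, giving 5449 genes. Background was the 95th percentile of the means of 1746 fission yeast probe sets.

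Groups came from the sample titles. One mean per group was fitted to all 12 arrays with limma 3.58.1 in R 4.3.3 (lmFit, eBayes, 6 residual degrees of freedom), with Benjamini-Hochberg adjustment over all genes within each comparison and a threshold of 0.05. An exact permutation of 2 against 2 arrays could not pass. The fit was tested on simulated data. Members, lists, tests and alternatives were chosen with earlier results of these data known. Named are all 9 members, up to 3 called genes of each list with the largest change (2 where none passed), genes of the strain labels and the 2 genes most like each member. ECM22, HAP1, HRD1, BTS1 and ALD4 were added after their values were seen. Genome coordinates, promoter and protein sequences were not used here.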

Additional observations from a re-analysis of the deposited data

How the results depend on the processing

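The 45 differences from REF were recomputed under 14 alternatives each, 630 values in all, of which 24 lost a call, 14 gained one and 592 kept their side of the threshold. None of the 5 called differences changed sign. Of the values not called under either setting, 43 changed sign, the largest of them 0.11 in size. The signs printed for these differences, and orders of group means that rest on them, are thus not settled. Genes called over the whole table numbered as follows. For E62A there were 683, against 1224 with array weights, 1113 with the compared groups alone, 352 at a threshold of 0.01, 1246 without E62C replicate 2 and SO16 replicate 2, and 302 to 413 without 1 array. For E62B there were 0, against 2, 4 and 3 with array weights, the compared groups alone and without both weak arrays. For E62C there were 534, against 316 with the compared groups alone, 265 at 0.01 and 250 to 551 without 1 array. For SO16 there were 479, against 253 with array weights, 271 with the compared groups alone, 261 at 0.01, 897 without both weak arrays and 228 to 536 without 1 array. For PGM2 there were 739, against 379 at 0.01, 1211 without both weak arrays and 358 to 549 without 1 array.

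Mevalonate genes called for E62A numbered 4, against 0 at 0.01 and 0 to 1 without 1 array. For E62C there were 0, against 1 with median centring (ERG12), 1 with a trended robust variance (MVD1), 1 without both weak arrays, 2 with the replicate block (ERG10, adjusted p = 0.0424, and MVD1, 0.0444) and 0 to 1 without 1 array. For SO16 there were 0, against 1 (ERG10) with median centring, with quantile normalization or with the replicate block, and 0 to 1 without 1 array. For PGM2 there was 1, against 2 with quantile normalization or without both weak arrays, 0 at 0.01 and 0 to 1 without 1 array. ERG13 on E62A missed the threshold with median centring (0.28, adjusted p = 0.0535). ERG10 passed on E62A with array weights (adjusted p = 0.0304) and without both weak arrays (0.0333). No label states whether the replicate numbers pair the samples. The differences between replicates correlated at -0.35 to 0.54 between groups. The values were 0.47 to 0.53 among REF, PGM2 and E62B, and 0.18 to 0.54 among E62A, E62C and SO16. Between these sets, formed after the values were seen, they were -0.35 to 0.098. Whether some groups share a replicate effect was not tested. A lone array left in a group was assumed to vary like the others, and the cause of these changes was not tested. Comparisons among the 5 other groups were run under the main setting alone. Leaving out arrays for the genes outside the branch was chosen after seeing the data.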
